A study of Mus musculus with 6 samples.

Results

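Imprinted genes are expressed from only one parental copy, and 37 mouse gene symbols known for this were followed in the optic nerve of offspring of 2 diets. The symbols were looked up in a table of 35850 genes, and 32 of them were found. Of these, 12 are maternally expressed, 19 are paternally expressed, and Gnas is expressed from either parental copy depending on the isoform. The other 5 (H19, Meg3, Kcnq1ot1, Airn and Peg13) are long noncoding RNAs and were not analysed here.

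Bulk poly(A) RNA was measured in 6 optic nerve libraries, 3 per diet, to ask what an obesogenic diet does to gene expression in nerves that form glioma. Every mouse was 6 weeks old and carried GFAP-Cre together with 1 floxed Nf1 allele and 1 Nf1 allele with the R681X mutation. The control group had PicoLab 5053 chow, and the obesogenic group had AIN-76A food, in which fat supplies 58% of the energy, with sucrose. The GFAP promoter drives Cre in glia and their precursors, so loss of the floxed allele is limited to those lineages. The title calls the exposure maternal, but the labels give neither its timing nor the litter or animal behind a library. The p-values below therefore rest on the spread between 6 samples, and that spread may be technical.

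An imprint is a DNA methylation mark laid down in the egg or the sperm and kept through development, so that the marked and unmarked copies of a control region behave differently in later cells. Imprinted genes lie in clusters that share such a region, and many act on fetal growth, placental supply, feeding and the hypothalamus. In the brain, many are expressed more strongly in neurons than in glia. Total RNA per gene was measured here. Neither the parental copy nor DNA methylation was measured, so a higher level can come from 1 copy or from both. In bulk tissue, a change in the number of cells of a type and a change in RNA per cell cannot be told apart.

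Expression is given in TPM, a unit scaled to the library and divided by transcript length, which allows levels of different genes to be compared. A gene was tested where it reached 1 TPM in at least 3 libraries, which 30 of the 32 imprinted genes and 14364 genes in all did. The 2 that did not were Phlda2, a maternally expressed growth restrainer of the placenta, and Rtl1, a paternally expressed gene derived from a retrotransposon. Phlda2 stayed between 0 and 0.734 TPM and Rtl1 between 0.0311 and 1.26 TPM. Changes are differences of log2(TPM + 1), obesogenic minus control, from limma, and they understate the change of weakly expressed genes. Adjusted p-values are limma's, two-sided and over all genes tested.

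Several libraries stood apart. Immunoglobulin genes took 20.6% of the listed TPM in obesogenic library 2 and at most 0.0439% in any other library. The summed level of 12 neuron markers was 196, 159.9 and 272 TPM in control libraries 1, 2 and 3, and 737, 279 and 1781 TPM in libraries 1, 2 and 3 of the obesogenic diet. For 13 hypothalamic neuron markers the sums were 807, 421 and 2208 TPM against 7926, 1310.1 and 7301 TPM. Markers of the sheath of the nerve went the other way, with sums of 2601, 2427 and 1862 TPM against 903, 890.2 and 721 TPM for 16 meningeal genes. The obesogenic mean was higher in all 12 tested neuron and all 11 tested hypothalamic markers and lower in all 16 meningeal markers. Of these, 5, 7 and 13 were separated between diets, beside 8.88% of all genes upwards and 7.45% downwards. The 7 include Ghrh, which was under 1 TPM in every control library. It passed the filter only through the obesogenic libraries, so once tested it could only be separated upwards. No marker of these 3 lists was at 0 in every library. Obesogenic libraries 1 and 3 thus held the highest neuronal sums, and all 3 obesogenic libraries held low meningeal sums. The part of these cell types in the values below was not tested.

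Most imprinted genes had a higher obesogenic mean (15 of 18 paternally and 8 of 11 maternally expressed, beside 57.7% of all genes), but none passed the test. Of the 30 tested imprinted genes, 0 had an adjusted p under 0.05 (range 0.218 to 0.957), beside 1 of 14364 genes in all (0.00696%). At an unadjusted p under 0.05 there were 12 with a higher and 1 with a lower obesogenic mean, where 5.97% of all genes were higher and 5.0% lower. In 11 imprinted genes every obesogenic library lay above every control library, and in 1 every obesogenic library lay below. Over all genes these shares were 8.88% and 7.45%. Of 18 tested paternally expressed genes, 8 were separated upwards and 0 downwards. Of 11 tested maternally expressed genes, 3 were separated upwards and 1 downwards. Among the 3 is Asb4, which was under 1 TPM in every control library. It passed the filter only through the obesogenic libraries, so once tested it could only be separated upwards.

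**Figure D1:**
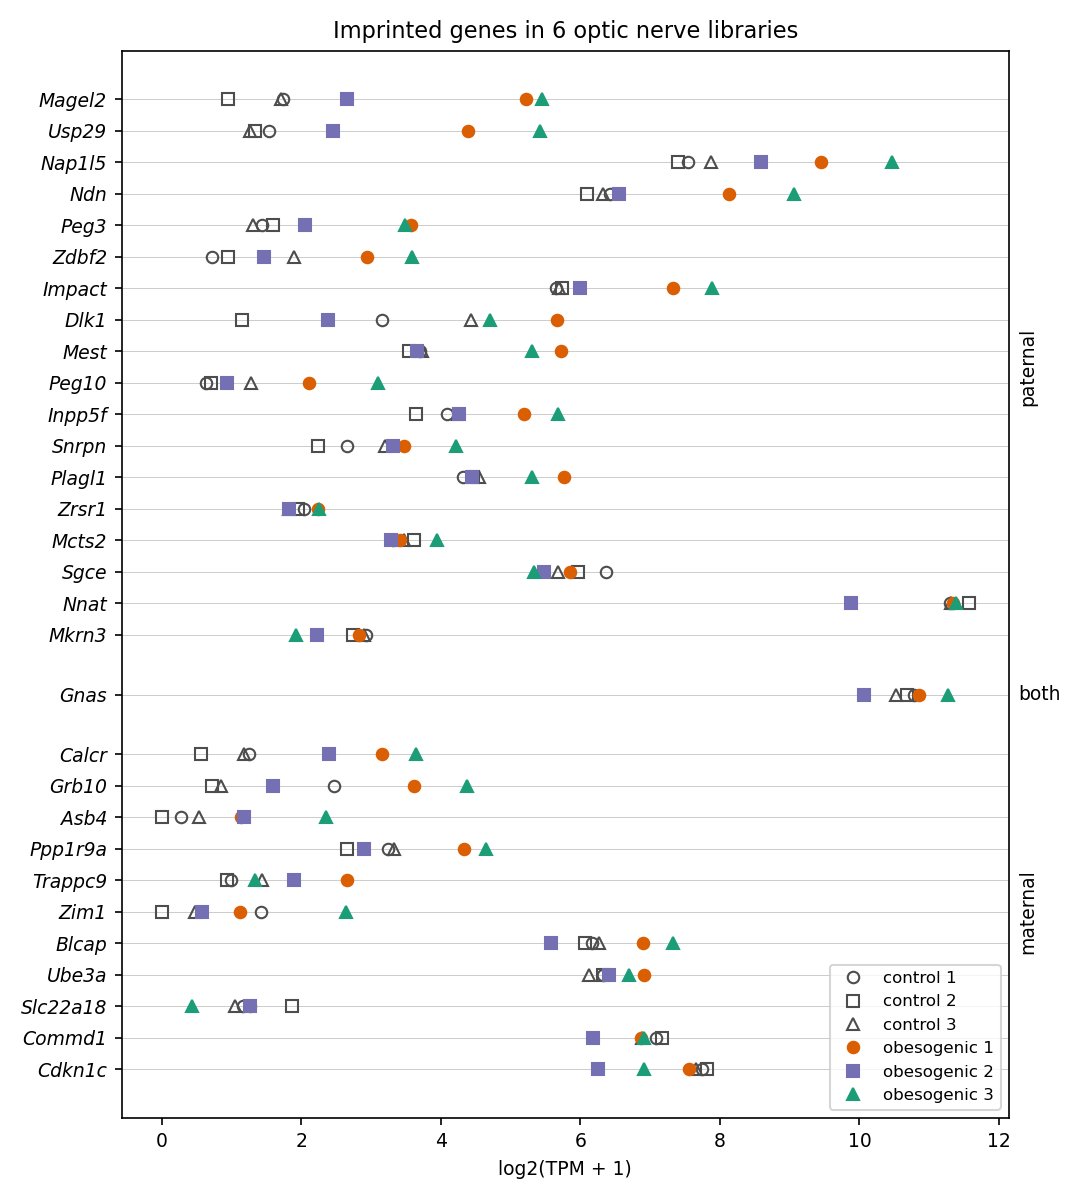
Level of the 30 tested imprinted genes in each of the 6 optic nerve libraries, as log2(TPM + 1) on the horizontal axis, with 1 row per gene and 1 marker per library. Obesogenic libraries 1 and 3 are the highest 2 of the 6 in 20 of the 30 genes, while obesogenic library 2 often lies near the control libraries.

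The median log2 change was 1.21 over the paternally expressed genes, 0.82 over the maternally expressed genes and 0.08 over all genes tested. The difference between the parental classes was not tested. Set against the control mean, the paternally expressed genes had a median of 1.47, 0.16 and 1.74 in obesogenic libraries 1, 2 and 3. The maternally expressed genes had 0.73, -0.05 and 1.17 in the same libraries, and all genes 0.19, -0.16 and 0.14. Both parental classes were therefore high in libraries 1 and 3 and near control in library 2. Obesogenic libraries 1 and 3 were the highest 2 of the 6 in 14 of 18 paternally and 5 of 11 maternally expressed genes, beside 28.2% of all genes. Many genes counted as maternally expressed are imprinted in 1 tissue or 1 isoform only. When genes of that kind were left out, the maternal median was -0.37 over the 3 that remained, and the paternal median was 1.21 over 16. The 3 were Cdkn1c at -0.84, Slc22a18 at -0.37 and Zim1 at 0.82. The maternal median is thus the value of 1 gene, Slc22a18, which is weak (0.353 to 2.64 TPM, SE 0.41).

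**Figure D2:**
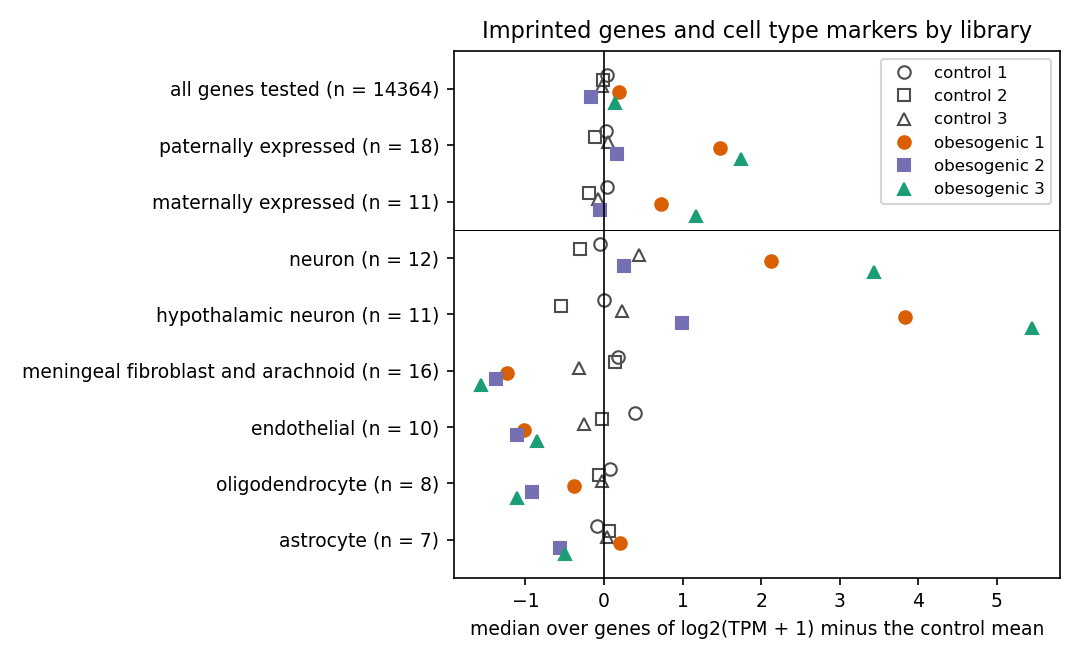
Median over the genes of a list of log2(TPM + 1) minus the control mean, with 1 marker per library, for all genes, both parental classes and 6 lists of cell type markers. Paternally expressed genes (1.47 and 1.74) and neuron markers (2.12 and 3.44) are both high in obesogenic libraries 1 and 3, whereas meningeal markers are low in all 3 obesogenic libraries.

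Whether imprinted genes passed the test depended on how obesogenic library 2 and the other libraries were weighted. With all 6 libraries and limma's array weights, 18 of the 30 passed, beside 14.4% of all genes. Without library 2, 13 of the 30 passed, all of them higher (adjusted p from 0.0175 to 0.049), beside 6.36% of all genes passing and 5.12% passing on the higher side. Of the 13, 10 are paternally expressed (Peg3, Plagl1, Mest, Ndn, Impact, Magel2, Nap1l5, Inpp5f, Zdbf2 and Usp29) and 3 are maternally expressed (Calcr, Ppp1r9a and Blcap). With any 1 of the other 5 libraries left out instead, 0 passed. The fit without library 2 compares 2 obesogenic with 3 control libraries, and those 2 hold the highest neuronal sums.

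The Peg3 cluster on chromosome 7 holds 2 paternally expressed genes, Peg3 and Usp29, that start back to back and are transcribed away from each other. The DNA between their first annotated bases lies within the methylated control region of the cluster and is shown because both genes were high together. It spans 163 bases (chr7:6730420-6730582, plus strand, GRCm38.p6, from RefSeq's promoter windows). Capitals mark CpG dinucleotides, the sites that mammalian DNA methylation uses, of which there are 5, beside a median of 4 in a stretch of this length upstream of all gene starts.
Peg3-Usp29: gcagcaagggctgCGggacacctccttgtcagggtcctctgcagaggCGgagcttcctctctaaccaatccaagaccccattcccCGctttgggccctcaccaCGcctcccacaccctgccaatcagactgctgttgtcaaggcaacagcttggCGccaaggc

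Peg3 (ENSMUSG00000002265) encodes a zinc finger protein known for its part in maternal care and growth. It measured 1.69, 2.01 and 1.46 TPM on the control diet and 10.9, 3.14 and 10.2 TPM on the obesogenic diet, a log2 change of 1.60 (SE 0.46, adjusted p = 0.326). The largest part in each obesogenic library was a transcript annotated as nonsense-mediated decay, at 0, 1.35 and 0 against 6.36, 2.18 and 7.65 TPM. A retained intron added to the sum. The only listed Peg3 transcript annotated as coding was at 0.686, 0 and 0.158 against 1.78, 0.413 and 1.19 TPM. That coding transcript overlapped through library 2 and was not tested. Usp29 (ENSMUSG00000051527), whose product resembles ubiquitin-specific proteases, measured 1.90, 1.53 and 1.40 against 19.9, 4.49 and 41.8 TPM, a log2 change of 2.71 (SE 0.70, adjusted p = 0.276). In both genes, at gene level, all obesogenic libraries were above all control libraries, and library 2 was the lowest of the 3. The maternally expressed neighbour Zim1, another zinc finger gene, was weak and overlapped between diets, at 1.67, 0 and 0.386 against 1.17, 0.492 and 5.25 TPM. The ratio of Peg3 to Usp29 at gene level was 0.889, 1.31 and 1.04 in control and 0.546, 0.698 and 0.245 in obesogenic libraries. The diets did not overlap here either, but both gene sums include transcripts not annotated as coding. This ratio was chosen after the values were seen, and an exact permutation test of 3 libraries against 3 cannot give a p below 0.1.

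The Prader-Willi and Angelman region, also on chromosome 7, contributed the member with the largest change. Magel2 (ENSMUSG00000056972), a MAGE family gene known for its role in hypothalamic neurons, measured 2.32, 0.919 and 2.26 TPM on the control diet and 36.3, 5.28 and 42.7 TPM on the obesogenic diet. Its log2 change was 2.98 (SE 0.74, adjusted p = 0.267). Its neighbour Ndn (ENSMUSG00000033585), which encodes necdin, a growth-suppressing protein of postmitotic neurons, measured 84.6, 67.4 and 78.8 against 280.5, 92.5 and 536 TPM (log2 change 1.64, SE 0.57, adjusted p = 0.394). Both genes were separated between diets, with library 2 closest to control.

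Snrpn (ENSMUSG00000102252), which encodes a spliceosome protein of neurons, measured 5.32, 3.72 and 8.19 TPM on the control diet and 10.1, 8.98 and 17.5 TPM on the obesogenic diet (log2 change 0.97, SE 0.38, adjusted p = 0.427). Snurf, listed as a gene of its own although it shares a transcript with Snrpn, was more abundant at 96.6, 50.8 and 80.1 against 182, 78.2 and 275 TPM. The split of reads between those 2 is uncertain. The remaining paternally expressed member here, Mkrn3, a ubiquitin ligase known for restraining puberty, was at 6.63, 5.70 and 6.43 against 6.07, 3.69 and 2.79 TPM. It overlapped between diets, and its mean was on the lower side (log2 change -0.53, SE 0.33, adjusted p = 0.609).

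Ube3a (ENSMUSG00000025326) is the maternally expressed member of this region and encodes the ubiquitin ligase lost in Angelman syndrome. It is imprinted in neurons while glia use both copies. It measured 79.4, 79.1 and 68.7 TPM on the control diet and 119, 84.2 and 103 TPM on the obesogenic diet, a log2 change of 0.42 (SE 0.19, adjusted p = 0.484). The diets did not overlap at gene level. Its most abundant transcript, Ube3a-216, did overlap (20.3, 21.8 and 19.7 against 17.8, 19.2 and 23.8 TPM, log2 change -0.03, SE 0.22). So of the 5 members in this region 4, from both parental classes, were separated upwards, beside 8.88% of all genes. Imprinted genes outside the members were not counted here. Of those, Snurf overlapped, and Atp10a was separated downwards (log2 change -0.39, SE 0.26, adjusted p = 0.647).

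The Peg10 cluster on chromosome 6 mixes both classes. Calcr (ENSMUSG00000023964), the calcitonin receptor, is maternally expressed in brain and is used by hypothalamic and brainstem neurons in feeding and parental behaviour. It measured 1.38, 0.467 and 1.26 TPM on the control diet and 7.88, 4.26 and 11.5 TPM on the obesogenic diet, and had the smallest adjusted p of the imprinted genes (log2 change 2.07, SE 0.42, adjusted p = 0.218). Asb4 (ENSMUSG00000042607), a ubiquitin ligase adaptor of hypothalamic neurons and vessels, was barely listed in control (0.204, 0 and 0.447 TPM) and reached 1.20, 1.25 and 4.08 TPM on the obesogenic diet (log2 change 1.28, SE 0.43, adjusted p = 0.38). Both were separated between diets, including library 2. For Asb4 this was fixed by the filter, which it passed only through the obesogenic libraries.

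Ppp1r9a, a maternally expressed actin-binding scaffold of synapses, measured 8.50, 5.29 and 9.07 against 19.2, 6.43 and 24.0 TPM and overlapped through library 2. Peg10, a retrotransposon-derived gene of the placenta, overlapped in the same way, at 0.542, 0.625 and 1.43 against 3.31, 0.903 and 7.59 TPM. Sgce, which encodes epsilon-sarcoglycan and shares its start region with Peg10, had a lower mean, at 81.5, 61.3 and 50.0 against 56.8, 43.5 and 39.3 TPM (log2 change -0.45, SE 0.24, adjusted p = 0.557). The 2 paternally expressed genes that start side by side here therefore had means on opposite sides of control.

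**Figure D3:**
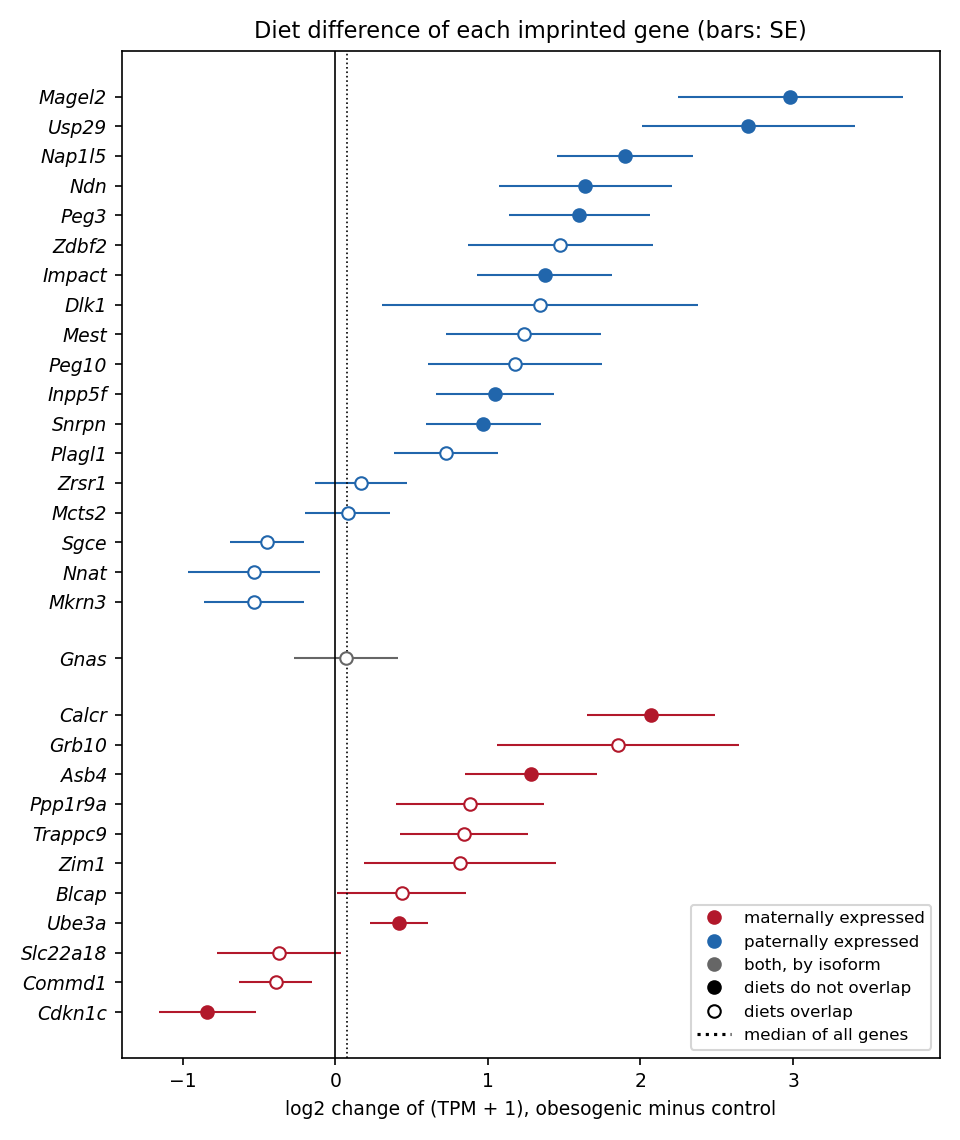
Log2 change of (TPM + 1), obesogenic minus control, of each tested imprinted gene with its standard error (bars), by parental class. Filled points mark genes whose libraries do not overlap between diets; 15 of 18 paternally and 8 of 11 maternally expressed genes lie to the right of 0, and Cdkn1c is the only filled point to the left.

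Cdkn1c (ENSMUSG00000037664), on chromosome 7 in the Kcnq1 cluster, was the member separated downwards. It is maternally expressed and encodes p57, an inhibitor of cyclin-dependent kinases that limits growth and holds precursor cells out of the cell cycle. It measured 214, 225 and 201 TPM on the control diet and 187, 75.1 and 119 TPM on the obesogenic diet, a log2 change of -0.84 (SE 0.32, adjusted p = 0.42). The gap was narrow, since obesogenic library 1 lay just under the lowest control library, and library 2 had the lowest value. Oligodendrocyte markers were also lowest in libraries 2 and 3, with summed levels of 64403, 61712 and 69598 TPM against 54976, 26817 and 28114 TPM. Endothelial markers (1064, 838 and 655 against 368, 343 and 457 TPM) and pericyte and smooth muscle markers (1185, 977 and 761 against 418, 429 and 406 TPM, with Pdgfrb at 0 throughout) were lower in all 3 obesogenic libraries. The part of these cell types in the Cdkn1c values was not tested. In the same cluster Slc22a18, a transporter gene, was near 1 TPM and overlapped.

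A list of 5 tested paternally expressed genes from separate loci held Nap1l5, Impact, Inpp5f, Zdbf2 and Mcts2. Of these 5, 3 were separated upwards, beside 8.88% of all genes. Mest and Plagl1, also the only members of their loci, are given below and overlapped. Nap1l5 (ENSMUSG00000055430), an intronless gene related to nucleosome assembly proteins and expressed in neurons, measured 185, 167 and 233 TPM on the control diet and 697, 383 and 1412 TPM on the obesogenic diet. Its log2 change was 1.90 (SE 0.45, adjusted p = 0.248), and every obesogenic library was clear of control. Impact (ENSMUSG00000024423), which holds back the stress kinase GCN2 in neurons, measured 49.3, 52.3 and 50.8 against 159, 62.6 and 236 TPM (log2 change 1.37, SE 0.44, adjusted p = 0.365). Its control libraries were tight, and library 2 lay only a little above them.

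Inpp5f (ENSMUSG00000042105) encodes an inositol phosphatase, and only its shorter isoforms, which start inside the gene, are imprinted. The listed transcripts of Inpp5f together measured 16.0, 11.5 and 18.0 TPM on the control diet and 35.4, 18.1 and 50.0 TPM on the obesogenic diet (log2 change 1.05, SE 0.38, adjusted p = 0.414). The 3 transcripts with an internal start summed to 6.31, 0.505 and 7.55 against 19.1, 4.86 and 46.0 TPM and overlapped through library 2. The other 4 transcripts, all annotated as retained introns or noncoding, summed to 9.70, 11.0 and 10.4 against 16.4, 13.2 and 3.98 TPM. No full-length coding transcript was listed. In obesogenic library 3 nearly all of the listed level came from the 3 internal-start transcripts, whereas in control library 2 almost none did. These values do not compare the imprinted isoforms with the full-length ones. Zdbf2, a large gene linked to feeding in young mice, was at 0.650, 0.932 and 2.7 against 6.66, 1.76 and 11.0 TPM and overlapped. Mcts2 and Zrsr1 are copies of other genes made through RNA, so their reads may be shared with the parent genes, and both overlapped, with log2 changes of 0.08 and 0.17.

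Dlk1, Mest and Plagl1 overlapped between diets. Dlk1, a paternally expressed inhibitor of differentiation on chromosome 12 that is also made in the pituitary and hypothalamus, measured 7.95, 1.21 and 20.6 TPM on the control diet and 49.7, 4.23 and 25.1 TPM on the obesogenic diet (log2 change 1.34, SE 1.04, adjusted p = 0.692). On the log2(TPM + 1) scale it had the widest range of the tested members within control. The summed level of 7 pituitary markers also varied within each diet, at 293, 1.80 and 5.53 TPM against 433, 25.2 and 103 TPM, with Pou1f1 at 0 throughout. Mest, an enzyme of the hydrolase fold, measured 12.0, 10.7 and 12.3 against 51.7, 11.6 and 38.7 TPM (log2 change 1.24, SE 0.51, adjusted p = 0.442). Mest was high in obesogenic libraries 1 and 3 only, and library 2 lay inside the control range.

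Plagl1, a zinc finger transcription factor that regulates other imprinted genes, measured 19, 20.9 and 22.4 TPM on the control diet and 53.2, 20.7 and 38.5 TPM on the obesogenic diet (log2 change 0.73, SE 0.34, adjusted p = 0.493). Library 2 again lay inside the control range. Among 93 tested transcripts of imprinted genes, 0 had an adjusted p under 0.05, beside 2 of 35408 transcripts (0.00565%). The lowest was 0.154, for Plagl1-220, a short transcript listed at 0 in all 3 control libraries and at 4.78, 2.91 and 6.21 TPM on the obesogenic diet. It is named because its values were seen. Any transcript under 1 TPM in every control library, as this one, passed the filter only through the obesogenic libraries. Such a transcript could only be separated upwards, and it counts in the numbers that follow. In all, 19 of the 93 transcripts were separated upwards and 6 downwards, beside 13.5% of all transcripts in either direction.

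Grb10 (ENSMUSG00000020176), on chromosome 11, encodes an adaptor that dampens insulin and growth factor signalling. It is maternally expressed in most tissues and paternally expressed in neurons, from a different start. As a gene it measured 4.53, 0.639 and 0.795 TPM on the control diet and 11.2, 2.02 and 19.7 TPM on the obesogenic diet (log2 change 1.85, SE 0.79, adjusted p = 0.458). The diets overlapped, because control library 1 exceeded obesogenic library 2. The 3 transcripts from downstream starts summed to 2.03, 0.639 and 0.758 against 9.53, 1.81 and 19.4 TPM. The single upstream transcript was listed at 0 in every library but obesogenic library 1, at 0.46 TPM. In every library except control library 1, most of the listed Grb10 level thus came from the downstream starts, the ones used in neurons. Grb10 is nevertheless counted as maternally expressed in the counts, medians and figures. The parental copy behind its level was not measured. Of 224 GENCODE M21 transcripts of the imprinted genes found, 200 were listed. Upstream Grb10 transcripts may be among the missing ones, so the balance between the starts is uncertain.

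The Gnas locus on chromosome 2 shows both parental classes within 1 gene. It encodes the stimulatory G protein alpha subunit (Gs alpha), which couples receptors to cyclic AMP and is imprinted in few cell types. Upstream starts produce the neuroendocrine secretory protein Nesp55 from the maternal copy, and XL alpha s and the noncoding exon 1A transcript from the paternal copy. The 250 bases before the RefSeq start of 3 of these transcript groups are shown because the groups differed in direction (GRCm38.p6, plus strand, from RefSeq's promoter windows). In the order Nesp, exon 1A and Gs alpha they span chr2:174284070-174284319, chr2:174327499-174327748 and chr2:174329756-174330005. The exon 1A stretch holds several of the GENCODE M21 starts of its group, Gnas-221 among them, rather than lying before them. Capitals mark CpG dinucleotides, which number 14, 21 and 29, beside a median of 6 in such windows over all genes.
Gnas Nesp: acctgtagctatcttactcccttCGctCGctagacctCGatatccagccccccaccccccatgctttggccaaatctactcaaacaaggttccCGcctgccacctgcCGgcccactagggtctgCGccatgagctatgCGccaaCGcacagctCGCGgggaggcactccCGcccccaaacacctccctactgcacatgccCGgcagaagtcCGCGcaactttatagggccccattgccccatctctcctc
Gnas exon 1A: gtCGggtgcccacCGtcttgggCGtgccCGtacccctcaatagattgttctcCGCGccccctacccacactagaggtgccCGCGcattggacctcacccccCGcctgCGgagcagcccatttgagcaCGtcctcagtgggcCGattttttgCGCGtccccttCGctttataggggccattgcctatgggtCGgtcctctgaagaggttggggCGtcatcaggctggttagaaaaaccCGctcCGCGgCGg
Gnas Gs alpha: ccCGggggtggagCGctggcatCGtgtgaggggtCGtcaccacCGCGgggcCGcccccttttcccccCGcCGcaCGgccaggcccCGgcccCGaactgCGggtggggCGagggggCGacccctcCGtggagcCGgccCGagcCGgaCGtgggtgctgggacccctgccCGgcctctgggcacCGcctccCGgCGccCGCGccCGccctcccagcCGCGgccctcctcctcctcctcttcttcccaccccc

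Gnas (ENSMUSG00000027523) as a whole overlapped between diets, at 1756, 1638 and 1471 TPM on the control diet and 1855, 1072 and 2465 TPM on the obesogenic diet (log2 change 0.07, SE 0.34, adjusted p = 0.957). Transcripts from the Gs alpha start made up most of it, at 1501, 1477 and 1235 against 1625, 934 and 2175 TPM. The 5 transcripts from the Nesp start summed to 76.9, 65.3 and 73.7 against 53.7, 25.8 and 36.4 TPM, so every obesogenic library lay below control. The most abundant of them, Gnas-211, measured 74.6, 64.4 and 67.8 against 49.7, 23.2 and 34.0 TPM (log2 change -0.99, SE 0.29, adjusted p = 0.401).

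The 5 transcripts from the exon 1A start summed to 21.3, 9.60 and 13.3 TPM on the control diet and 61.1, 16.3 and 107 TPM on the obesogenic diet, high in libraries 1 and 3 and overlapping through library 2. One of them, Gnas-221, was separated upwards, at 3.85, 5.31 and 5.82 against 39.2, 8.19 and 80.7 TPM (log2 change 2.39, SE 0.74, adjusted p = 0.434). The XL start, also paternally expressed, was weak and overlapped, at 4.70, 0.472 and 3.60 against 1.59, 2.15 and 1.52 TPM. As a share of Gnas, the Nesp start took 4.38%, 3.99% and 5.01% in control and 2.89%, 2.41% and 1.48% in obesogenic libraries, and exon 1A took 1.21%, 0.586% and 0.904% against 3.29%, 1.52% and 4.34%. The XL start took 0.268%, 0.0288% and 0.245% against 0.0857%, 0.201% and 0.0617%. As shares of the listed gene level, the Nesp start was therefore lower and the exon 1A start higher in every obesogenic library, while the XL start overlapped. Another 6 transcripts were not assigned to a start. They took 8.66%, 5.27% and 9.86% against 6.09%, 8.7% and 5.88%, more than the Nesp, exon 1A or XL start in every library. Whether the paternally expressed starts shared a direction can therefore not be judged from these values. Transcripts were grouped by start after their values were seen, and short-read data assign overlapping transcripts with uncertainty.

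**Figure D4:**
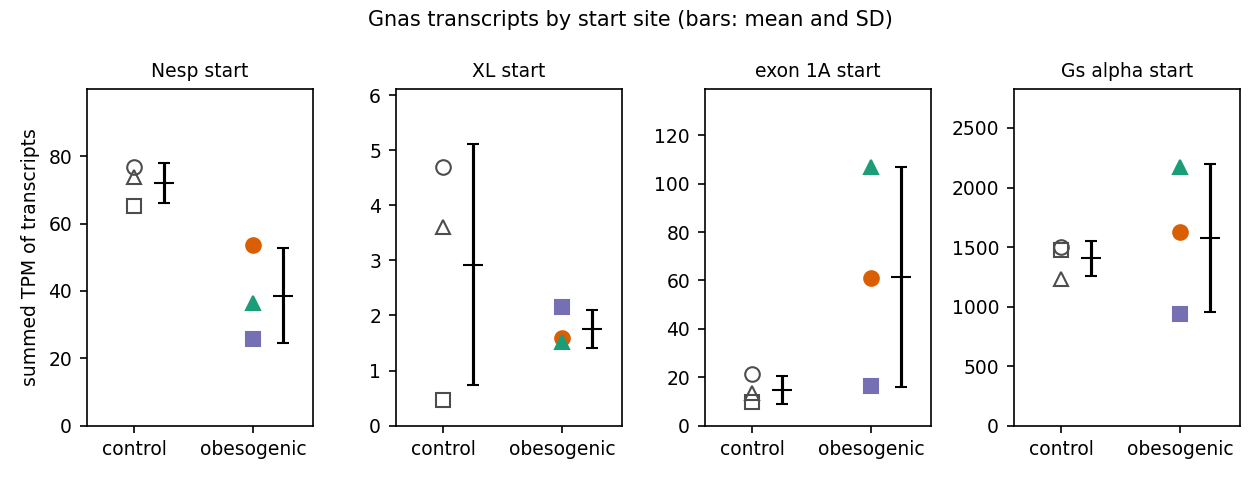
Summed TPM of Gnas transcripts by start site in 3 control and 3 obesogenic libraries (points, with the markers of the other plots), with mean and SD (bars); each panel has its own vertical axis from 0. The Nesp start is at 72.0 ± 6.01 TPM on the control diet and 38.6 ± 14.1 TPM on the obesogenic diet (SD, n = 3), and the exon 1A start at 14.7 ± 5.95 and 61.5 ± 45.5 TPM.

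In 2 further loci a paternally expressed gene lies inside an intron of a gene that is maternally expressed in brain. Nnat, which encodes neuronatin, a small membrane protein of developing brain, was the most abundant member, at 2528, 3033 and 2556 TPM on the control diet and 2583, 945 and 2668 TPM on the obesogenic diet (log2 change -0.53, SE 0.43, adjusted p = 0.71). Only library 2 stood out, below all others. Blcap, its host, measured 70.6, 66.0 and 76.3 against 118, 46.7 and 160.3 TPM and was also lowest in library 2. The ratio of Nnat to Blcap was 35.8, 45.9 and 33.5 in control and 21.8, 20.2 and 16.6 in obesogenic libraries, so it was lower in each of them although neither gene was separated alone.

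Commd1, a regulator of copper and NF-kappaB, is the host of Zrsr1, a splicing factor gene. Commd1 measured 135, 143 and 117 against 116, 71.6 and 119 TPM, and Zrsr1 3.11, 2.86 and 2.55 against 3.73, 2.54 and 3.77 TPM. The ratio of Zrsr1 to Commd1 was 0.0231, 0.02 and 0.0219 in control and 0.0322, 0.0355 and 0.0316 in obesogenic libraries. The host was thus lower relative to the nested gene here and higher relative to it at Blcap. Both ratios were chosen after the values were seen. The sources used here do not say whether strand was used in counting, and reads shared by host and nested gene cannot be told apart. Trappc9, a trafficking gene maternally biased in brain, was at 0.988, 0.907 and 1.69 against 5.31, 2.7 and 1.53 TPM, and unlike most members was lowest in library 3 among the obesogenic libraries.

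Short motifs were searched on both strands in RefSeq's promoter windows, from 250 bases before to 50 after each start, for 44 starts of 29 of the 37 imprinted genes. Windows of imprinted genes on chromosome 18, where Impact lies, were left out, while the share over all genes kept that chromosome. The letters TGCCGC, bound by the imprint-keeping protein ZFP57 where the CpG is methylated, were in 13 of the 44 windows (29.5%) and in 11.6% of 32851 windows over all genes. They were found at Calcr, Commd1, Grb10, Mcts2, Meg3, Mest, Nap1l5, Nnat, Plagl1, Snrpn, Zdbf2 and Zim1. These include genes with higher and with lower obesogenic means. The letters GGGGCCCC, a PLAGL1 motif, were in 3 of the 44 windows (6.82%), at Peg3, Usp29 and Ppp1r9a, and in 1.08% of all windows. The windows of Peg3 and Usp29 share DNA, and windows of 1 gene can overlap. A match is a description of letters and not a binding site.

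Other imprinted genes were split between directions. Of 48 further symbols, 33 were tested, with 17 means higher and 16 lower, 7 separated upwards and 4 downwards, a median log2 change of 0.12, and 0 passing. Over all genes, 57.7% of means were higher, 8.88% of genes were separated upwards and 7.45% downwards. Among the 7 is Htr2a, at 0.698, 0.958 and 0.696 against 1.74, 1.13 and 6.19 TPM. It passed the filter only through the obesogenic libraries, so once tested it could only be separated upwards. Igf2, the paternally expressed fetal growth factor that the meninges and choroid plexus make from both copies, measured 623, 654 and 367 TPM on the control diet and 130.4, 142 and 125 TPM on the obesogenic diet (log2 change -2.00, SE 0.25, adjusted p = 0.119). All 3 obesogenic libraries were low, library 2 included, as were the summed meningeal markers given above. Slc22a2, a cation transporter gene, was also below control throughout (13.8, 26.3 and 17.8 against 7.83, 5.81 and 5.72 TPM, log2 change -1.41, SE 0.31, adjusted p = 0.233).

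In contrast, Th and Rasgrf1 were above control throughout. Th, the rate-limiting enzyme of dopamine synthesis, measured 1.62, 0.579 and 3.51 against 19.3, 6.87 and 38.4 TPM (log2 change 2.80, SE 0.65, adjusted p = 0.247). Rasgrf1, a paternally expressed activator of RAS in neurons, measured 12.8, 6.74 and 10.9 against 96.2, 22.8 and 188 TPM (log2 change 2.81, SE 0.70, adjusted p = 0.267). As in Magel2 and Ndn, library 3 was highest and library 2 lowest among the obesogenic libraries.

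Genes that set or keep methylation marks were a mixed group, with 20 of 23 tested, 11 means higher and 9 lower, a median log2 change of 0.16 and 0 passing. In 3 of the 20 the libraries were separated upwards and in 1 downwards, beside 8.88% and 7.45% of all genes. Dnmt1, which copies methylation to new DNA strands, measured 5.20, 7.02 and 6.77 TPM on the control diet and 11.8, 10.6 and 12.1 TPM on the obesogenic diet (log2 change 0.78, SE 0.26, adjusted p = 0.366). Ezh2, the histone methyltransferase of Polycomb, measured 3.03, 1.07 and 2.88 against 9.29, 10.9 and 6.44 TPM (log2 change 1.60, SE 0.38, adjusted p = 0.253). Kdm1b, a histone demethylase needed for imprints in the egg, was on the lower side, at 3.24, 3.33 and 2.75 against 1.33, 0.457 and 0 TPM (log2 change -1.45, SE 0.39, adjusted p = 0.297). The fourth separated gene, Setdb1, a histone methyltransferase, measured 15.0, 13.5 and 14.4 against 20.7, 16.4 and 16.7 TPM (log2 change 0.30, SE 0.22, adjusted p = 0.667).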

How the data were processed

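The authors deposited 1 table of TPM per transcript for 6 libraries. TPM carries no sequencing depth, and no counting intervals are given. Of the tools DRAGEN, STAR 2.7.9a, featureCounts 2.0.3 and Subread, listed in the submitters' processing notes, the roles are unstated. Genome build and annotation: not given in the sources used here. Listed values summed to 788456 to 832193 TPM per library, and a value of 0 means listed at 0.

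Repeated lines of a transcript were dropped (415 transcripts), and TPM was summed per gene. Genes reaching 1 TPM in 3 or more libraries were tested as log2(TPM + 1), pseudocount 1, with limma 3.58.1 in R 4.3.3 (eBayes with trend, Benjamini-Hochberg over 14364 genes, threshold 0.05). Transcripts were tested likewise. The code was tested on simulated data. Members and lists were chosen with earlier results of these data known. Values are given in full for members whose libraries do not overlap between diets, for the 10 of smallest unadjusted p and for a fixed set of well-known imprinted genes; from each further list, for Igf2 and up to 4 of smallest p. Transcript starts come from GENCODE M21 (GRCm38), where 200 of 206 listed member transcripts matched by identifier. Python 3.11.15, pandas 2.3.3 and matplotlib 3.10.9 were used for tables and figures. Alternatives covered the pseudocount, filter, scaling, replicate block, array weights, transcript choice, robust eBayes and each library left out. Obesogenic library 2 alone against control was added after seeing the data.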

Additional observations from a re-analysis of the deposited data

How the results depend on the processing

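Obesogenic library 2 and the weighting of libraries set the calls. Over all genes, 1 was called, with 0 without a filter, 2064 with array weights (14.4%), 193 for obesogenic library 2 alone against control, and 0 to 914 when 1 library was left out (914 without obesogenic library 2). Of the imprinted genes 0 were called, with 18 under array weights and 0 to 13 with 1 library left out. The fit of obesogenic library 2 alone holds 1 obesogenic library, so its calls are not given. In that fit the log2 change was -1.49 for Cdkn1c and -1.51 for Nnat. Separated imprinted genes numbered 12, with 13 to 22 when 1 library was left out and 21 for library 2 alone, where fewer libraries make separation easier, 18 after median ratio scaling, 14 after rescaling without immunoglobulin genes, and 8 of the 19 genes tested with the filter at 5 TPM.

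The median log2 change of imprinted genes was 0.93, from 0.68 to 1.33 with 1 library left out, and 0.03 for library 2 alone. The maternal median of 0.82 ran from 0.4 to 0.95, was -0.05 for library 2 alone and -0.37 for the 3 genes imprinted in most tissues. The paternal median of 1.21 ran from 0.84 to 1.79 and was 0.16 for library 2 alone. Single genes that changed sign were Mcts2 (-0.02 with array weights, -0.12 to 0.21 with 1 library left out), Gnas (-0.2 to 0.4 with 1 library left out), and, with the most abundant transcript only, Ube3a (-0.03) and Zrsr1 (-0.34). For library 2 alone the sign also changed in Zim1 (-0.05), Ppp1r9a (-0.18), Blcap (-0.59), Dlk1 (-0.53), Plagl1 (-0.00), Mest (-0.00), Mcts2 (-0.18), Zrsr1 (-0.12) and Gnas (-0.59). The cause was not tested. The median over all genes moved from 0.08 to 0.17 without immunoglobulin genes and 0.18 with array weights. Transcripts were tested at the main setting alone.

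Libraries of both diets carry numbers 1 to 3, and same-numbered libraries deviated together with correlations of 0.008, 0.177 and 0.132, so the numbers were not taken as pairs. With the number as a replicate block, 0 imprinted genes and 1 gene in all were called, 12 imprinted genes were separated, and the medians were 0.93, 0.82 and 1.21.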
